A study of Homo sapiens with 4 samples.

Results

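The 10 genes described here encode plasma membrane carriers of amino acids, or the partner that such carriers need: SLC7A1, SLC7A2, SLC7A5, SLC7A6, SLC7A8, SLC7A11, SLC3A2, SLC1A5, SLC38A1 and SLC38A2. They were taken by gene symbol from a table of read counts for 26364 symbols. All 10 were present, and all 10 were among the 15599 genes with enough counts to be tested. The samples were Ishikawa cells, a human endometrial adenocarcinoma line. In both groups the cells had a mutant ESR1, which encodes estrogen receptor alpha, with the Y537S substitution in the part that binds ligand. The study asked how this mutant receptor acts on gene expression. For at least 5 days the cells had been kept without phenol red, in serum stripped of hormones. They were then exposed for 8 h to 10 nM estradiol (E2), or to 0.1% DMSO as the vehicle control. Each of the 2 groups had 2 libraries, 1 from each of 2 mutant clones. The columns of the table carry the tags A4 and B212. No label links these tags to the numbered clones, so each library is called by its treatment and its tag.

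Cells take up most amino acids through carriers of a few families. SLC7A5, SLC7A6, SLC7A8 and SLC7A11 are light chains: each joins the glycoprotein SLC3A2, the heavy chain that brings the pair to the cell surface. The SLC7A5 pair, LAT1, exchanges large neutral amino acids such as leucine for glutamine, and leucine inside the cell feeds the mTORC1 growth pathway. SLC1A5, SLC38A1 and SLC38A2 bring in glutamine and other small neutral amino acids. SLC7A1 and SLC7A2 carry arginine and lysine without a heavy chain. SLC7A5 has been linked to estrogen in hormone-responsive tissues. Amino acid shortage raises several of these genes through the transcription factor ATF4, and oxidative stress raises SLC7A11 through NRF2.

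Promoter sequences were read for 8 of the 10 genes from a RefSeq table on GRCh38.p14, which is not the build named for the counts. SLC7A2 and SLC7A11 had no entry. The SLC7A5 promoter is shown because SLC7A5 was the most abundant of the 10 transcripts per length. Short windows of other members are shown because they hold response elements for the stress pathways named above. Capitals mark the matched motif, sequences run 5′ to 3′ on the gene's strand, and positions count back from the transcription start.
SLC7A5, chr16:87869508-87869757, minus strand: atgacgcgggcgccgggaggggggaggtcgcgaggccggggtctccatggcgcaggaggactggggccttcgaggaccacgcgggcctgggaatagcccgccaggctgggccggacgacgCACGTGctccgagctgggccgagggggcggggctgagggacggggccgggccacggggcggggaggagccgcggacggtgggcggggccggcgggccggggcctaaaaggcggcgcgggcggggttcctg
SLC3A2, position -37: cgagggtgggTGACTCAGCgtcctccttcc
SLC7A1, position -85: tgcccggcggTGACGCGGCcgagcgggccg
SLC7A6, position -29: cggcggcgggTGACGTGGCggggcggggcc
SLC1A5, position -97: aggaagtggcTGATGCAAGctgtccagggt

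The SLC7A5 window lies before the first exon, and 0 of its 250 bases fall in an exon of the GENCODE 29 annotation. Its GC content was 79.6%, against a median of 58.0% over all promoters in the table. It holds the E-box CACGTG at position -130, a motif searched after these letters had been seen, and 6.34% of the 35116 promoter windows hold it on either strand. Windows of SLC7A8 (position -129) and of SLC1A5 (position -50, at an internal start) hold it too. A window each of SLC3A2, SLC7A1 and SLC7A6 holds the antioxidant response element TGACNNNGC, which 10.9% of all windows hold. Counted by gene, 3609 of 27305 genes have it in at least 1 window. SLC7A6 has a further copy at position -197, and 1 of the other SLC1A5 starts has one at position -111 on the opposite strand. The SLC1A5 window belongs to an internal start of that gene and holds the amino acid response element TGATGNAAN, found in 3.13% of all windows. The full palindromic estrogen response element, GGTCA and TGACC with 3 bases between them, was in 0 member windows and in 0.0399% of all windows. The shorter GGTCA, 1 arm of that palindrome, was in a window each of SLC3A2, SLC1A5 and SLC38A1, which also have windows without it. It was in 32.6% of all windows and, counted by gene, in at least 1 window of 10281 of 27305 genes. At the SLC1A5 start with the antioxidant match, GGTCA overlaps that match. These matches describe letters only, and the counts do not show which start was used.

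The libraries held between 71575816 and 85222856 counts, and 18358 to 18861 genes had at least 1 count. The 10 transporter genes together took 0.563% of the counts in DMSO A4, 0.515% in E2 A4, 0.444% in DMSO B212 and 0.455% in E2 B212. Gene counts cannot show the Y537S point mutation. ESR1 had 8049 and 7956 counts in A4 and 9163 and 6342 in B212, each pair given as DMSO then E2, or 109.9, 97.0, 107.4 and 86.5 CPM (counts scaled to a common library total). It fell with E2 when the tag was a block (log2 -0.25 ± 0.070, edgeR adjusted p = 0.0330), with -0.18 in A4 and -0.31 in B212, but did not pass after removal of a length and GC trend (0.102). All 8 simple epithelium markers were tested, and their summed level was 2278 to 2377 CPM in A4 and 2711 to 2974 CPM in B212. The 5 immune markers summed to 1.71 to 2.57 CPM, with 2 of them tested and the T cell marker CD3E at 0 counts. The 4 endothelial markers summed to 2.30 to 5.11 CPM, with 2 tested and PECAM1 at 0 counts. The 7 fibroblast markers, 4 of them tested, summed to 95.6 to 131.6 CPM in A4 and 38.3 to 46.4 CPM in B212, most of it COL1A1.

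Levels of different genes were compared as CPM per kilobase of coding sequence, averaged over the 4 libraries. SLC7A5 led with 1038 ± 282 (SD, n = 4), and its lowest library, at 756, lay above the highest library of any other member. The glutamine carriers SLC38A1 (650 ± 68.2) and SLC38A2 (536 ± 102) followed, with overlapping ranges. The next group was SLC3A2 (249 ± 71.0), SLC7A1 (228 ± 26.1), SLC1A5 (208 ± 82.0) and SLC7A11 (196 ± 46.0), whose ranges also overlapped. SLC7A6, at 25.8 ± 5.02, stood below these 7 genes in every library. SLC7A2 (2.22 ± 1.06) and SLC7A8 (0.97 ± 0.51) were the lowest, with overlapping ranges. These orders use the length of the coding sequence and are sensitive to that choice: per kilobase of the longest transcript, SLC7A5 remained first at 348, SLC3A2 came second at 212.2, and SLC38A1 fell behind SLC38A2.

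**Figure D1:**
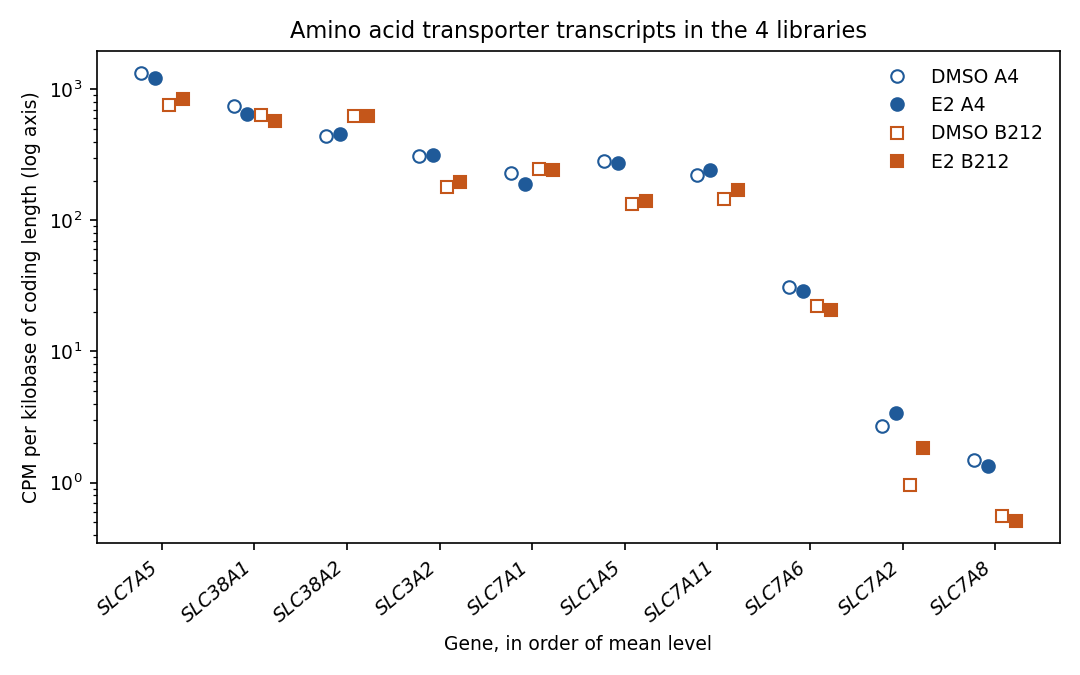
Level of each of the 10 transporter genes in CPM per kilobase of coding sequence (log axis), with 1 point for each of the 4 libraries, marked by treatment and tag. SLC7A5 stands highest, at 756 to 1329, and SLC7A8 lowest, at 0.51 to 1.48, while SLC38A1 and SLC38A2 overlap.

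The 4 light chains among the members, which share SLC3A2, were weighed against one another on the same scale. SLC7A5 made up 83.8% of the summed level of the 4 light chains in DMSO A4, 81.7% in E2 A4, 81.8% in DMSO B212 and 81.5% in E2 B212. SLC7A11, the cystine and glutamate exchanger xCT, made up 14.1%, 16.3%, 15.7% and 16.4% in that order. SLC7A6, which exchanges arginine for neutral amino acids, held 1.94% to 2.41%. SLC7A8, the broad neutral exchanger LAT2, held 0.049% to 0.093%. Among these 4, SLC7A5 was by far the main light chain in all 4 libraries, whichever tag or treatment they had. SLC7A7, at 0.83 to 1.09 CPM, was not counted in this sum. The ratio of SLC7A5 to SLC3A2 was 4.32, 3.91, 4.20 and 4.30 in the same order. Over all 4 light chains the ratio to SLC3A2 was 4.79 to 5.27 per coding length, and 1.71 to 1.88 per transcript length. These are RNA ratios and hold no measure of assembled protein.

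The tags differed in every one of the 10 genes. B212 was compared with A4 by edgeR's quasi-likelihood test with treatment as a covariate and adjustment over all tested genes, at a threshold of 0.05. All 10 members passed, 8 lower and 2 higher in B212. Of all tested genes 51.0% passed, 25.2% higher and 25.8% lower in B212. The CPM of the tags did not overlap for all 10 members, and for 67.5% of tested genes. The median log2 difference of the members was -0.63, against 0.0042 over all tested genes, and the median absolute difference was 0.63 against 0.28. With scaling by library size only, 4761 genes passed as higher and 3176 as lower in B212, against 3927 and 4023 with the scaling used here. Since a tag holds 2 libraries that differ in treatment, the p-values measure their spread about the fit and not the variation between clones of a genotype. Fits that left out a library, given below, had no treatment term.

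The heavy chain and its main light chain were both lower in B212. SLC7A5 stood at 2022 CPM in DMSO A4 and 1863 in E2 A4, against 1149.7 in DMSO B212 and 1280.4 in E2 B212. Both A4 libraries lay above both B212 libraries, and B212 had 62.5% of the A4 level (log2 -0.68 ± 0.081 SE, adjusted p = 8.21e-07). SLC3A2 stood at 582, 592, 340.4 and 371 CPM in the same order of libraries. It was likewise lower in both B212 libraries, at 60.5% of A4 (log2 -0.73 ± 0.072, adjusted p = 6.64e-08). The 95% intervals of these differences, -0.85 to -0.51 and -0.88 to -0.57, overlap.

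The other light chains were also lower in B212. SLC7A11 measured 336 and 367 CPM in DMSO and E2 A4, against 218 and 255 in DMSO and E2 B212, a log2 difference of -0.57 ± 0.071 (adjusted p = 1.27e-06). SLC7A6 measured 47.8 and 45.0 CPM in A4 against 34.5 and 32.0 in B212, a log2 difference of -0.48 ± 0.077 (adjusted p = 3.13e-05). The tags did not overlap for either gene, but the SLC7A11 call was lost without the DMSO B212 library (adjusted p = 0.0797) and the SLC7A6 call without the E2 B212 library (adjusted p = 0.122). SLC7A8, the rarest member, had 174 and 177 counts in A4 against 76 and 60 in B212. Its log2 difference, -1.41 ± 0.20, was the largest of the 10 in size (adjusted p = 6.82e-06).

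The glutamine carriers moved in different directions. SLC1A5, or ASCT2, had 463 and 441 CPM in DMSO and E2 A4, and 217 and 228 in DMSO and E2 B212. B212 held 49.2% of the A4 level (log2 -1.02 ± 0.073, adjusted p = 4.13e-10), the smallest adjusted p among the members. SLC38A2, a sodium-coupled carrier known for its rise in amino acid shortage, was higher in B212: 666 and 694 CPM in A4 against 946 and 949 in B212 (log2 0.48 ± 0.073, adjusted p = 1.78e-05). Its close relative SLC38A1 was slightly lower in B212, with 1117 and 978 CPM in A4 against 960.1 and 868 in B212 (log2 -0.20 ± 0.073, adjusted p = 0.0318). The ratio of SLC38A2 to SLC38A1 per coding length was 0.593 in DMSO A4, 0.705 in E2 A4, 0.979 in DMSO B212 and 1.09 in E2 B212. The SLC38A1 call was lost with library-size scaling (adjusted p = 0.167) and when any 1 library was left out (0.0697 to 0.723). The SLC38A2 call was lost without DMSO B212 (0.0613) or without E2 B212 (0.0603).

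The arginine and lysine carriers split as well. SLC7A1, the widely expressed carrier CAT1, had 431 CPM in DMSO A4 and 359.6 in E2 A4, against 469 in DMSO B212 and 458 in E2 B212. It was higher in B212 by 0.23 ± 0.075 on the log2 scale (adjusted p = 0.0133), a call lost without E2 A4 (0.509), without DMSO B212 (0.535) or without E2 B212 (0.427). SLC7A2 had 417 and 581 counts in A4 against 170 and 281 in B212. B212 had 44.2% of its A4 level (log2 -1.18 ± 0.15, adjusted p = 1.69e-06), and leaving out 1 library moved the difference between -1.68 and -0.75. SLC7A2, SLC7A8 and SLC1A5 were the 3 members that differed by at least 1 on the log2 scale, a size that 11.0% of tested genes reached with a passing p.

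**Figure D2:**
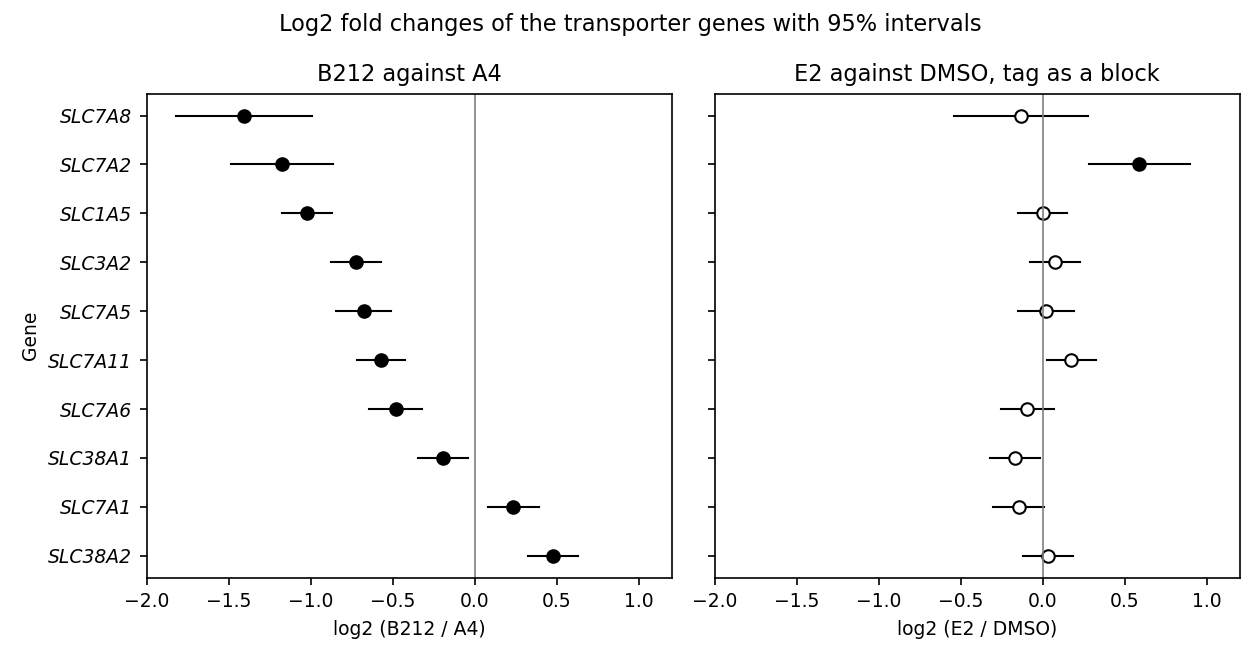
Log2 difference of each transporter gene, for B212 over A4 and for E2 over DMSO with the tag as a block (points, with 95% intervals from edgeR, filled where the adjusted p is under 0.05). For B212 over A4 the points run from -1.41 for SLC7A8 to 0.48 for SLC38A2, and for E2 only SLC7A2, at 0.59, passed the adjusted threshold.

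Marker genes also differed between the tags. In the same test 5 of 8 epithelial markers were higher in B212 and 0 lower. Of the 4 fibroblast markers tested, COL1A1, COL1A2 and COL3A1 were lower and THY1 was higher, at 256.6% of A4. Both tested endothelial markers were higher, and 0 of 2 immune markers passed. Of the 4 markers of an endometrial carcinoma line (PAX8, ESR1, HOXB6 and SOX17), 3 were higher and 0 lower. Their summed level was 330 to 393 CPM in A4 and 478 to 527 CPM in B212. Of all tested genes 51.0% passed in this comparison. The part of these markers in the transporter differences was not tested. In bulk RNA, fewer cells with a transcript and less transcript in each cell cannot be told apart. Pseudogene copies of SLC7A5 had few counts: SLC7A5P1 had 67 to 119 and SLC7A5P2 65 to 95, beside 93860 to 152836 for SLC7A5. The antisense gene SLC7A11-AS1 had 9 to 50 counts, and SLC7A6OS, a gene next to SLC7A6, had 385 to 481. Whether reads of such neighbours and copies were split correctly depends on the counting settings, which are not given in the sources used here.

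None of the 10 genes passed when the E2 group was compared with the DMSO group without a block. In edgeR's quasi-likelihood test 0 of 15599 genes passed (0%), with 150 at an unadjusted p under 0.05. DESeq2 called 1 gene and limma-voom 0. The members' adjusted p was 0.9999 for each, with log2 differences from -0.17 for SLC38A1 to 0.51 for SLC7A2, and 0 members had an unadjusted p under 0.05. The CPM of the DMSO and E2 groups overlapped for all 10 members, whereas the groups did not overlap for 25.0% of tested genes. The 95% interval for SLC7A5 ran from -0.95 to 0.93, so this fit does not exclude changes within those bounds. The interval is not adjusted for the number of genes, and larger changes could also miss the adjusted threshold. In simulated counts with the tag differences as measured, the fit without a block recovered 0 of 200 genes raised 2-fold. The spread of this fit includes the difference between the tags (a biological coefficient of variation of 32.2%, against 5.99% with the tag as a block).

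With the tag as a block, 1 of the 10 members passed, SLC7A2, which was higher with E2. In that fit 9.56% of tested genes passed, 6.13% higher and 3.44% lower. SLC7A2 had 417 counts in DMSO A4 and 581 in E2 A4, and 170 in DMSO B212 and 281 in E2 B212. In CPM it went from 5.69 to 7.08 CPM and from 1.99 to 3.83. Both tags were higher with E2, by 0.31 (95% counting interval 0.13 to 0.50) in A4 and by 0.94 (0.67 to 1.22) in B212 on the log2 scale. SLC7A2 rose 1.50-fold over both tags (log2 0.59 ± 0.15, edgeR adjusted p = 0.0174). The call held with limma-voom (0.0488), with library-size scaling (0.0082) and after removal of a smooth trend on length and GC content (0.0318, in a fit where 4.56% of tested genes passed, 2.91% higher and 1.65% lower). It did not hold with DESeq2 size factors (0.0554), and DESeq2 gave it no adjusted p. The gene stayed among the 2 least abundant members.

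The other members did not pass with the block. SLC7A5, the member linked to estrogen, had a log2 difference of 0.019 ± 0.081 (95% interval -0.15 to 0.19, edgeR adjusted p = 0.914). It went from 2022 to 1863 CPM with E2 in A4 and from 1149.7 to 1280.4 CPM in B212, so the tags had opposite signs. Without the trend on length and GC content, this difference became 0.16 (95% interval 0.024 to 0.30, unadjusted p = 0.0241 and adjusted p = 0.167 in edgeR). Its heavy chain SLC3A2 had 0.074 ± 0.072 (adjusted p = 0.559), and SLC1A5 had -0.00072 ± 0.072 (adjusted p = 0.996). SLC7A11 (0.17 ± 0.071, adjusted p = 0.126) and SLC38A1 (-0.17 ± 0.073, adjusted p = 0.153) had unadjusted p under 0.05 and the same sign in both tags. SLC7A1 (-0.15), SLC7A8 (-0.13), SLC7A6 (-0.096) and SLC38A2 (0.031) had adjusted p of 0.226 to 0.830. As a reference, PGR, a gene known to be induced by estradiol, rose in the same fit by 0.90 ± 0.14 (adjusted p = 8.55e-04), from 51.6 to 72.1 CPM in A4 and from 5.62 to 15.6 CPM in B212. DESeq2 with the block did not call it (adjusted p = 0.201).

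**Figure D3:**
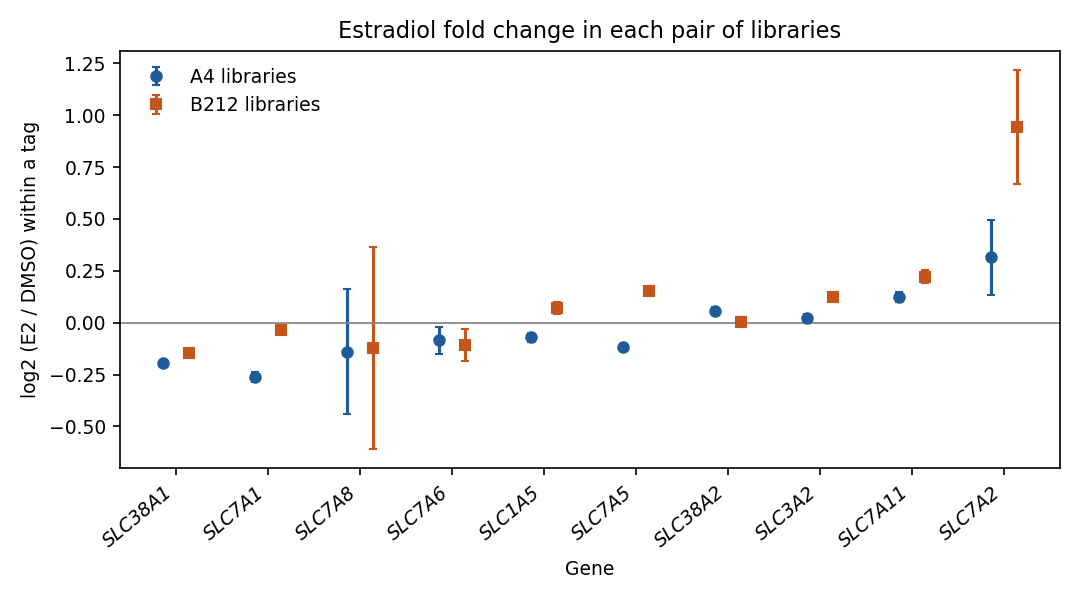
Log2 E2 over DMSO of each transporter gene within tag A4 and within tag B212, as points with 95% intervals that cover counting error only. SLC7A2 stands at 0.31 and 0.94, while SLC7A5 (-0.12 and 0.16) and SLC1A5 (-0.071 and 0.070) lie on opposite sides of 0.

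Further carriers were counted from a list of 25 other plasma membrane amino acid transporters, of which 15 were tested. In B212, 3 of these were higher and 7 lower than in A4, with a median log2 difference of -0.18. Of all tested genes 25.2% were higher and 25.8% lower in B212. SLC43A2, another large neutral amino acid carrier, was higher by 1.06 ± 0.073 (adjusted p = 2.48e-10), and SLC1A3, a glutamate carrier, by 0.57 ± 0.10 (adjusted p = 1.38e-04). SLC6A17 had a log2 difference of -5.60 ± 0.19 (adjusted p = 3.84e-15), and SLC6A15, a carrier of branched-chain amino acids, had a log2 difference of -1.66 ± 0.084 (adjusted p = 1.68e-12). With the tag as a block, 9.56% of all tested genes passed for E2, 6.13% higher and 3.44% lower. In that fit 1 of the 15, SLC6A6, the taurine carrier, passed. It had 11222 counts in DMSO A4, 15154 in E2 A4, 6694 in DMSO B212 and 12108 in E2 B212, and rose by 0.67 ± 0.11 (adjusted p = 0.00174), a call lost with DESeq2 (0.298).

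Lysosomal and orphan carriers (14 genes, 10 tested) had 1 higher and 6 lower in B212, with a median of -0.31. Of all tested genes 25.2% were higher and 25.8% lower in B212. SLC36A1, a proton-coupled carrier of small amino acids, had -0.89 ± 0.083 (adjusted p = 2.79e-08), and MFSD12, which serves cysteine import into lysosomes, -0.85 ± 0.084 (adjusted p = 5.88e-08). For E2 with the block, SLC38A6 rose by 0.32 ± 0.10 (adjusted p = 0.0476) and SLC36A1 fell (-0.28 ± 0.083, adjusted p = 0.0388). With the length and GC trend removed, neither passed.

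Of 22 genes of the ATF4 amino acid response, all tested, 16 were lower in B212, 1 was higher and 5 did not pass, with a median of -0.50, where 25.8% of all tested genes were lower and 25.2% higher. ASNS, asparagine synthetase, had -1.26 ± 0.071 (adjusted p = 1.08e-11), TRIB3, a pseudokinase that restrains ATF4, had -1.08 ± 0.077 (5.24e-10), and EIF4EBP1, a translation repressor, -0.93 ± 0.070 (9.07e-10). ATF4 itself had -0.46 ± 0.073 (adjusted p = 2.48e-05), and NUPR1, a stress-induced cofactor, was the gene that was higher (0.98 ± 0.089, adjusted p = 1.76e-08). With the block, 2 of the 22 passed for E2 and 11 had a positive log2 difference, in a fit where 9.56% of all tested genes passed. ASNS rose with E2 by 0.29 ± 0.070 (adjusted p = 0.0145) and PSPH, of serine synthesis, by 0.25 ± 0.072 (adjusted p = 0.0357). With the length and GC trend removed, ASNS passed and PSPH did not (0.0568).

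NRF2 and glutathione genes (15 in the table, 14 tested) had 10 lower and 0 higher in B212, with a median of -0.28. In that comparison 25.8% of all tested genes were lower and 25.2% higher. The median absolute difference of the list was 0.275, against 0.277 over all tested genes. OSGIN1 had -1.57 ± 0.16 (adjusted p = 1.28e-07), and TXNRD1, thioredoxin reductase, -0.59 ± 0.071 (1.03e-06). With the block, 0 passed for E2, where 9.56% of all tested genes passed, and 2 had an unadjusted p under 0.05. Metabolic genes tied to the transported substrates (23 genes, 19 tested) had 12 lower and 0 higher in B212, with a median of -0.23. BCAT1, the branched-chain aminotransferase, had -2.26 ± 0.076 (adjusted p = 2.72e-15), and GPT2, which makes alanine from glutamate and pyruvate, -0.66 ± 0.071 (2.20e-07). For E2 with the block, 1 of the 19 passed: PRODH, proline dehydrogenase, fell (-0.59 ± 0.15, adjusted p = 0.0159).

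The genes by which mTORC1 senses amino acids passed in both directions between the tags. Of 29 tested, 7 were higher and 9 lower in B212, with a median of -0.036. Of all tested genes 25.2% were higher and 25.8% lower. The median absolute difference was 0.24 in this list, against 0.28 over all tested genes. A positive log2 difference was seen in 9 of the 29, so most differences lay below 0. SESN3, a sestrin, was higher by 1.21 ± 0.072 (adjusted p = 2.63e-11), MTOR had -0.54 ± 0.070 (2.32e-06), and SEC13, a subunit of the complex that relays leucine signals, -0.53 ± 0.071 (3.56e-06). For E2 with the block, 4 of the 29 rose and 0 fell, where 6.13% of all tested genes rose and 3.44% fell. All 4 encode subunits of the Ragulator complex that holds the Rag GTPases on lysosomes. LAMTOR5 rose by 0.38 ± 0.078 (adjusted p = 0.00637), LAMTOR4 by 0.32 ± 0.083 (0.0221), LAMTOR2 by 0.29 ± 0.081 (0.0278), and LAMTOR3, which was named after its value was seen, by 0.26 (0.0340). With the length and GC trend removed, LAMTOR5 was the 1 gene of the list that passed.

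**Figure D4:**
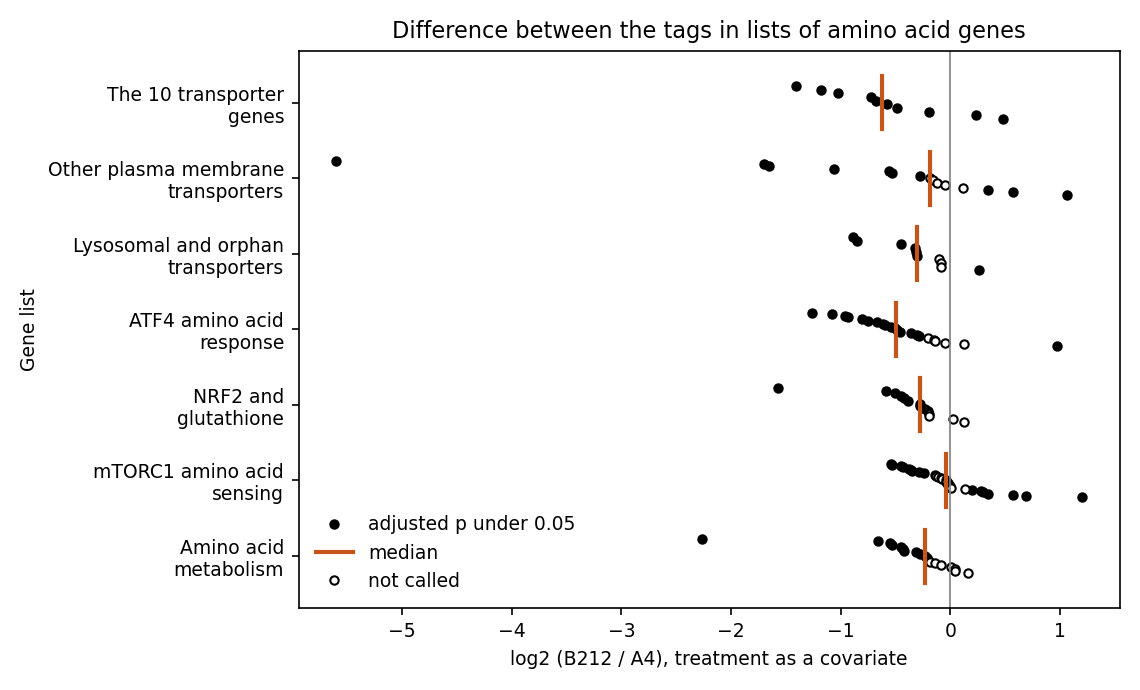
For the 10 transporter genes and each of the 6 related lists, the log2 difference of every tested gene, for B212 over A4 (filled where the adjusted p is under 0.05), with the median of the list as a line. Every median lies below 0 for B212. The medians run from -0.63 for the transporter genes and -0.50 for the ATF4 list to -0.036 for the mTORC1 list.

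The pattern of SLC7A5 over the 4 libraries was compared with that of the other members and the list genes, 117 candidates in all. Likeness was the root mean square difference of log2 CPM centred on each gene's mean. GPT2 (0.057) and SLC3A2 (0.057) were the closest, followed by ALDH1L2 (0.084), a mitochondrial folate enzyme of the ATF4 list. With 4 libraries the measure rests mainly on the difference between the tags.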

How the data were processed

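RNA was measured in 4 libraries made from poly(A)-selected RNA with a stranded kit and 500 ng of input, per the labels. The authors deposited raw counts, whole numbers of reads per gene symbol; the submitters' processing notes name hg19, HISAT2, SAMtools, featureCounts and DESeq2, with no roles, versions or strand setting. Columns were assigned to the DMSO and E2 groups by the treatment in their names. Another 4 columns matched no sample and were not used.

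Genes were kept by filterByExpr (minimum count 10) and scaled by TMM. The quasi-likelihood test of edgeR 4.0.16 compared E2 with DMSO without a block, and B212 with A4 with treatment as covariate, adjusted by Benjamini-Hochberg over 15599 genes (threshold 0.05). Tag replaces the clone number, which the labels do not link to columns, and same-tag libraries deviated together from their group means (Pearson r = 0.871 across genes), so a fit blocked by tag is given too. With 2 libraries per group, p-values measure the spread between these libraries. Replicates were not duplicates: the chi-square per degree of freedom between library pairs was 27.1 to 218.4.

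CPM used TMM-scaled totals; log2 CPM had a prior count of 2. Lengths and GC content came from GENCODE 29 (found for 93.5% of tested genes and all 10 members). Intervals are 95%. The scripts were tested on simulated counts with the tag differences as measured, 15473 genes and the same dispersion for all genes. With 200 genes raised 2-fold, the fit without a block recovered 0 and the blocked fit 189, with 12 false calls. Smaller changes were not simulated. Alternatives used DESeq2 1.42.0, limma 3.58.1 and mgcv 1.9.3, in R 4.3.3; figures used Python 3.11.15 with matplotlib 3.10.9.

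The members and gene lists were chosen with earlier results of these data known. Named were all members, ESR1, PGR, up to 3 list genes per direction and comparison by smallest p, and the 3 genes most like SLC7A5. A gene that this rule names is not reported here.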

Additional observations from a re-analysis of the deposited data

Results flagged for a closer look

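SLC7A5 and SLC1A5, 2 of the 10 members, had opposite signs in the tags for E2 over DMSO. The 21 genes looked at also held genes named because they passed the blocked E2 test, which favours equal signs in the tags. SLC7A5 had a log2 value of -0.12 in A4 and 0.16 in B212, and SLC1A5 had -0.071 in A4 and 0.070 in B212. With 1 library per tag and treatment, the difference between the tags was not tested. The signs held for both genes with scaling by TMM, by DESeq2 size factors and by library size only.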

How the results depend on the processing

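Without the block, 0 genes passed for E2 in edgeR under 2 other scalings, 2 other gene filters and a threshold of 0.01, and DESeq2 called 1 gene. With the tag as a replicate block, edgeR called 1492 genes, 956 higher and 536 lower. The block gave 562 with DESeq2, 1138 with limma-voom, 717 with DESeq2 size factors, 711 with the length and GC trend removed, 1686 with library size only (911 higher, 775 lower) and 415 at a threshold of 0.01. It called 1 member (SLC7A2) in edgeR, with limma-voom, with the trend removed and with library size only, and 0 members with DESeq2, DESeq2 size factors or the threshold of 0.01. Library size only with the block, and the length and GC trend for the tags, were chosen after seeing the data.

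For E2, the sign of SLC7A5 reversed from -0.013 to 0.018 with limma-voom, 0.019 with the replicate block, and with the block to 0.011 with DESeq2 or DESeq2 size factors, 0.022 with limma-voom and 0.16 with the trend removed. SLC1A5 reversed to 0.0027 with limma-voom, and with the block to 0.0012 with limma-voom and 0.080 with the trend removed. SLC38A2 reversed to -0.024 with the block and the trend removed. Leaving out 1 library without the block left 1 library in an arm, assumed to vary like the others. The arms then differed in their mix of tags, so these values take in part of the difference between the tags. The log2 values ran from -0.32 to 0.022 for SLC7A1, -0.074 to 1.46 for SLC7A2 and -0.38 to 0.46 for SLC7A5. They ran from -0.36 to 0.17 for SLC7A6, -0.996 to 0.75 for SLC7A8 and -0.13 to 0.51 for SLC7A11. For SLC3A2 the range was -0.32 to 0.51, for SLC1A5 -0.58 to 0.63 and for SLC38A2 -0.22 to 0.29. Among other genes, PGR ran from -0.87 to 2.97, SLC36A1 from -0.79 to 0.24, ASNS from -0.48 to 1.06 and PSPH from -0.13 to 0.58. Within each tag, SLC7A2, PGR, ASNS and PSPH were higher with E2 and SLC36A1 was lower.

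For B212 over A4, all 10 members passed with DESeq2, limma-voom, DESeq2 size factors, both other gene filters and the length and GC trend removed. Without the treatment term, 4456 genes and 8 members passed (SLC7A1 and SLC38A1 did not), with library size only 9 members, and with an absolute log2 difference of at least 1, 1723 genes and 3 members. Leaving out 1 library left 3203 to 5754 genes and 6 to 9 members, and SLC7A5, SLC3A2, SLC1A5, SLC7A2 and SLC7A8 passed each time. ESR1 ran from -0.27 to 0.053. Fits that left out a library also had no treatment term. With all 4 libraries and no treatment term, SLC7A11 (edgeR adjusted p = 0.0104), SLC7A6 (0.0120) and SLC38A2 (0.0096) passed. SLC7A1 (0.168) and SLC38A1 (0.221) did not pass in that fit of all 4 libraries. The cause of the calls lost with fewer libraries was not tested. SLC7A8 and SLC7A2 rest on 60 to 581 counts, which limits their precision.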
